A study of Mus musculus with 18 samples.

Results

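The comparison described here set retinal pigment epithelium (RPE) from aged mice that had received the control vector AAV2-tTA against RPE from aged mice with no vector treatment. The members were chosen by their library titles: 3 Old control libraries and 4 Old libraries, which makes 7 of the 18 libraries of the series. The whole study measured polyA RNA from mouse RPE, with Young libraries, Old libraries, Old control libraries and Old OSK libraries, the last from aged mice that received AAV2-tTA and TRE-OSK. The Old control group shares with the Old group its aged RPE and carries in addition the AAV2-tTA vector, without the OSK cassette. Age in months, strain, sex, dose, route, time after treatment and the pooling of animals are not given in the labels used here. No group received a carrier solution alone, so the vector and its delivery cannot be told apart.

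The RPE is a single layer of pigmented cells between the photoreceptors and the choroid. It recycles the visual pigment chromophore, engulfs shed photoreceptor outer segments, and moves glucose, lactate and ions between blood and retina. AAV2 is an adeno-associated virus serotype widely used to carry genes into the eye. It enters cells by endocytosis, and its genome can be sensed by innate immune receptors such as Tlr9. The tetracycline transactivator, tTA, is a transcription factor that switches on genes placed behind a TRE promoter. OSK stands for Oct4 (gene Pou5f1), Sox2 and Klf4, the reprogramming factors that the TRE cassette encodes. A vector with tTA alone therefore serves as the baseline for the OSK vector, and the comparison asks how far that baseline lies from untreated aged RPE.

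Depth was similar in both groups. Reads assigned to genes numbered 19167774 to 32348136 in the Old libraries and 25130319 to 26037720 in the Old control libraries, within the range of the whole series, 18104828 to 32348136. Of 21859 genes in the count table, 15944 passed the filter on low counts and were tested. Levels below are in CPM, the read count of a gene scaled to the total of reads assigned to genes, after TMM adjustment of those totals. They are not corrected for transcript length, so they compare 1 gene between libraries and not genes with each other. Fold changes are log2 values, Old control minus Old, from edgeR's quasi-likelihood test, each with its 95% interval.

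The libraries carried the markers of their label. The summed level of 12 RPE markers, among them the retinoid isomerase Rpe65, the retinal G protein-coupled receptor Rgr and transthyretin (Ttr), the carrier of thyroxine and of retinol-binding protein, was 49690, 48157, 49007 and 28404 CPM in Old 1 to 4, and 65038, 21561 and 56303 CPM in Old control 1 to 3. One library in each group, Old 4 and Old control 2, was well below the rest. Best1, the bestrophin chloride channel of the RPE, was at 0.679 to 2.10 CPM in the 7 libraries.

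Transcripts of other tissues differed between libraries more than between groups. Rod markers (12 genes, led by rhodopsin) summed to 8243, 2474, 2442 and 5751 CPM in Old 1 to 4, and to 4006, 20541 and 1913 CPM in Old control 1 to 3, so that Old control 2 held the most. Markers of ocular surface epithelium (12 genes such as the corneal keratin Krt12 and the limbal keratin Krt15, a list chosen after the values were seen) summed to 1079, 10161, 5503 and 23825 CPM in Old, and to 1464, 5519 and 3322 CPM in Old control. Old 4 was highest, Old 1 and Old control 1 were lowest, and the groups overlapped. Lens markers reached 271 CPM in Old control 3 against 5.24 to 71.8 CPM in the other 6 libraries.

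**Figure D1:**
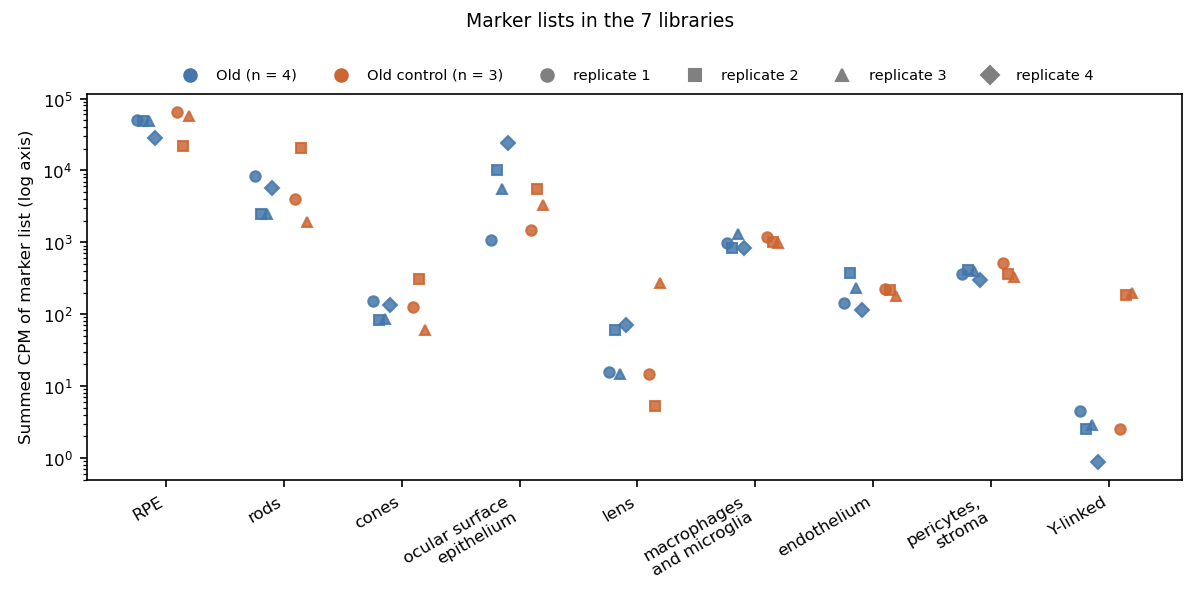
Summed CPM of 9 marker lists (log axis) in the 4 Old and 3 Old control libraries, with a colour for each group and a symbol for each replicate number. Old 4 is lowest of its group for RPE markers and highest for ocular surface markers, Old control 2 is lowest for RPE markers and highest for rod markers, and Old control 3 is highest for lens markers.

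Blood and immune markers were low or similar. Lymphocyte markers summed to 6.25 to 16.8 CPM in Old and 12.9 to 16.6 CPM in Old control. Neutrophil markers were at 3.35, 2.46, 4.0 and 15.7 CPM in Old and 2.46, 2.47 and 4.40 CPM in Old control, with Old 4 above the rest. Haemoglobin and other red cell markers summed to 89.4 to 146 CPM against 72.4 to 120 CPM. Endothelial markers summed to 113 to 375 CPM against 181 to 224 CPM, and markers of pericytes and stroma to 300 to 408 CPM against 332 to 522 CPM. The ranges of the groups overlapped for all of these lists. In bulk RNA, fewer cells of a type and less RNA per cell cannot be told apart.

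A further difference runs along the library names. Old control 2 and Old control 3 carry the letter M in their names, whose meaning the labels do not give, while Old control 1 and the 4 Old libraries do not. The summed counts of 4 Y-linked genes were 5493 and 5013 in Old control 2 and 3, 60 in Old control 1, and 29 to 93 in the Old libraries. The translation factor gene Eif2s3y, for example, was at 46.3 and 37.7 CPM in those 2 libraries, 0.806 CPM in Old control 1, and 0.239 to 0.784 CPM in Old. The letter M and the Y-linked transcripts thus divided the Old control group in the same way. Within the Old group no library carries the letter or high Y-linked counts. A difference between groups that rests on Old control 2 and 3 alone therefore cannot be told apart from a difference in sex, or from whatever else the letter marks.

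Across all genes the groups lay no farther apart than libraries of 1 group. The root mean square difference in log2 CPM was 0.558 to 1.04 between pairs of Old libraries (median 0.79, 6 pairs) and 0.643 to 1.12 between pairs of Old control libraries (median 1.10, 3 pairs). Between an Old and an Old control library it was 0.616 to 1.10 (median 0.82, 12 pairs). On the first principal component, which held 42.2% of the variance, Old 4 (60.8) and Old control 2 (71.8) lay far from the other 5 libraries (-56.9 to 2.43), 1 from each group.

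No gene passed the test in either direction. With edgeR's quasi-likelihood test and Benjamini-Hochberg adjustment, 0 of 15944 genes (0%) were called higher in Old control and 0 (0%) lower, and the lowest adjusted p was 0.90. DESeq2 and limma-voom also called 0 genes. At an unadjusted p under 0.05, 383 genes (2.4%) were higher and 213 (1.34%) lower, 596 in all, where 797 are the 5% that such a threshold passes when no gene differs. DESeq2 and limma-voom gave 736 and 464 such genes. That number moved with single libraries: it was 1245 without Old 1, 367 without Old 2, 1276 without Old control 2 and 1047 without Old control 3, each still with 0 genes called. In 359 genes (2.25%) every Old control library was above every Old library, and in 148 genes (0.928%) every Old control library was below. The median log2 fold change over all genes was 0.04, and 9150 genes (57.4%) had a positive value.

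The intervals say how large a change the fit leaves room for, with the spread of each gene estimated over all 18 libraries. For 10344 genes (64.9%) the 95% interval lay wholly inside a 2-fold change in either direction, and for 7240 genes (45.4%) it lay inside 1.5-fold. For 13546 genes (85%) it lay inside 4-fold. With the 7 libraries of the comparison fitted alone, 63.4% of 15338 genes had an interval inside 2-fold. A formal test of equivalence, which sets 2 one-sided tests against a 2-fold rise and a 2-fold fall and adjusts over all genes, called 10606 genes (66.5%) equivalent within 2-fold. Taken one direction at a time, a 2-fold rise lay outside the interval of 12406 genes (77.8%) and a 2-fold fall outside that of 12463 genes (78.2%).

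Precision followed expression level. Below a mean of 0 log2 CPM, 1.57% of 1780 genes had an interval inside 2-fold, and the median half-width of the interval was 1.57. Between 2 and 4 log2 CPM the share was 64.1% of 3436 genes, with a median half-width of 0.55. Between 6 and 8 log2 CPM it was 92.2% of 2670 genes, with a median half-width of 0.30. Above 8 log2 CPM, where Rpe65, Rgr, Ttr and rhodopsin stand, the median half-width was 0.43, wider than in the level below it. Among 10504 genes with a mean of at least 3 log2 CPM, 9002 (85.7%) had an interval inside 2-fold. The bound farthest from 0 was 1.57-fold or less for the gene at the median, 2.68-fold at the 75th percentile and 5.36-fold at the 90th percentile. The median standard error, 0.22, matched that of the Old OSK against Old control comparison and exceeded that of Old against Young, 0.18.

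**Figure D2:**
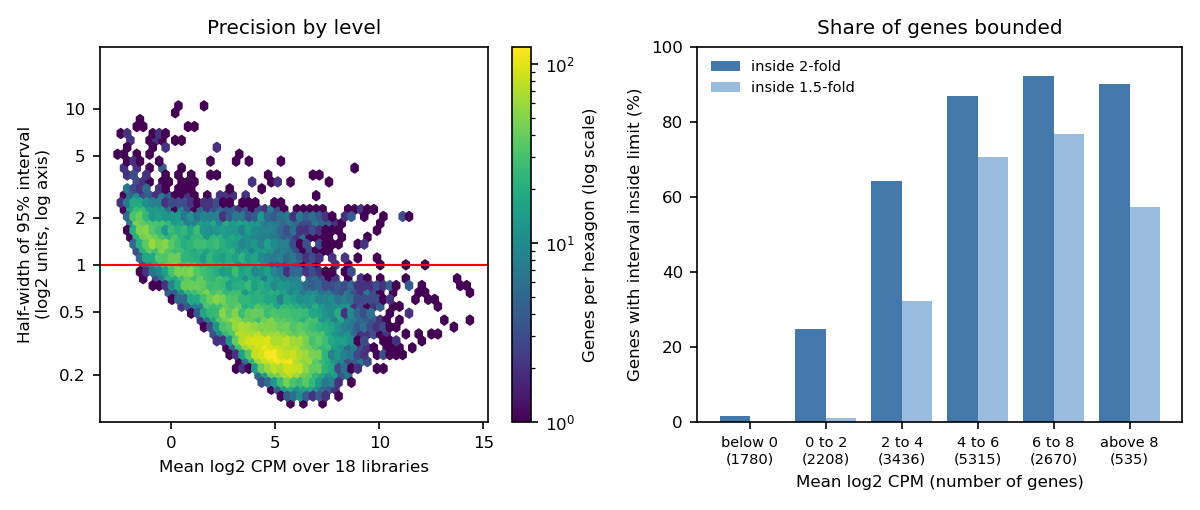
Left, half-width of the 95% interval of the log2 fold change (Old control minus Old, log axis) against mean log2 CPM over the 18 libraries, coloured by the number of genes per hexagon, with a line at 1 (2-fold). Right, the percentage of genes in each range of mean log2 CPM whose interval lay inside 2-fold or 1.5-fold. Half-widths narrow from a median of 1.57 below 0 log2 CPM to 0.30 between 6 and 8 log2 CPM; 1 gene with a numerically unstable standard error lies above the axis.

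The genes at the top of the ranking by p are given next for their values, which are also what they were chosen by. All 12 had an adjusted p of 0.90 by edgeR's quasi-likelihood test, so none is a call. Among genes with a mean of at least 3 log2 CPM, those higher in Old control were led by Nmu, the neuropeptide neuromedin U. It was at 1.10, 0.888, 3.47 and 2.24 CPM in Old 1 to 4 and at 3.01, 3.25 and 112 CPM in Old control 1 to 3 (log2 fold change 4.31, interval 2.10 to 6.53). Old control 3 alone was high, and without it the value was 0.66 with an interval from -0.84 to 2.16.

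The other genes of that direction differed by less, with every Old control library above every Old library. Cebpd, a transcription factor of the acute-phase response, was at 19.3, 21.4, 24.3 and 24.5 CPM in Old and 26.7, 51.1 and 35.5 CPM in Old control (0.76, interval 0.36 to 1.15). Hmox1, heme oxygenase 1, was at 24.4, 15.4, 17.8 and 18.6 CPM against 27.2, 25.4 and 36.7 CPM (0.64, interval 0.30 to 0.99). For both genes the lowest Old control library lay just above the highest Old library. Pfkm, the muscle-type phosphofructokinase of glycolysis, was at 124 to 130 CPM in the 4 Old libraries and at 154, 165 and 162 CPM in Old control (0.34, interval 0.15 to 0.53). Sgcb, beta-sarcoglycan of the dystrophin complex, was at 29.5 to 31.4 CPM against 37.4, 42.6 and 37.1 CPM (0.36, interval 0.15 to 0.56). Dcaf12l1 was at 6.87 to 7.88 CPM against 9.84, 11.8 and 10.6 CPM (0.51, interval 0.24 to 0.79). In these 3 genes the libraries of each group lay close together and the groups were apart, while the intervals of all 3 lay inside 2-fold.

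Lower in Old control were Aldh1a2, a retinaldehyde dehydrogenase that makes retinoic acid, at 17, 7.42, 12 and 9.12 CPM in Old and 4.33, 5.62 and 3.02 CPM in Old control (-1.40, interval -2.15 to -0.64). Every Old control library was below every Old library. Wfdc2, a secreted protease inhibitor, was at 43.5, 58.7, 55.4 and 67.6 CPM against 30.2, 24.9 and 42.9 CPM (-0.78, interval -1.29 to -0.28), apart by a narrow margin. Mtus1, a microtubule-associated protein, was at 137 to 147 CPM against 119, 99.4 and 124 CPM (-0.31, interval -0.52 to -0.10). Its groups were apart as well, with an interval inside 1.5-fold.

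The remaining 3 were less clear. Slc35c1, the Golgi GDP-fucose transporter, was at 13.6, 18.2, 17.7 and 17.7 CPM against 11.5, 13.5 and 12.3 CPM (-0.43, interval -0.76 to -0.11), with Old 1 barely above Old control 2. Sik1, a salt-inducible kinase, was at 17.5, 30.8, 38.2 and 43.2 CPM in Old and 17.1, 18.8 and 15.5 CPM in Old control (-0.92, interval -1.60 to -0.24). Crispld2, a secreted matrix protein, was at 12.5 to 24.7 CPM against 13.6, 9.44 and 8.65 CPM (-0.82, interval -1.33 to -0.32). In Sik1 the Old 1 library and in Crispld2 the Old 2 library lay among the Old control values.

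**Figure D3:**
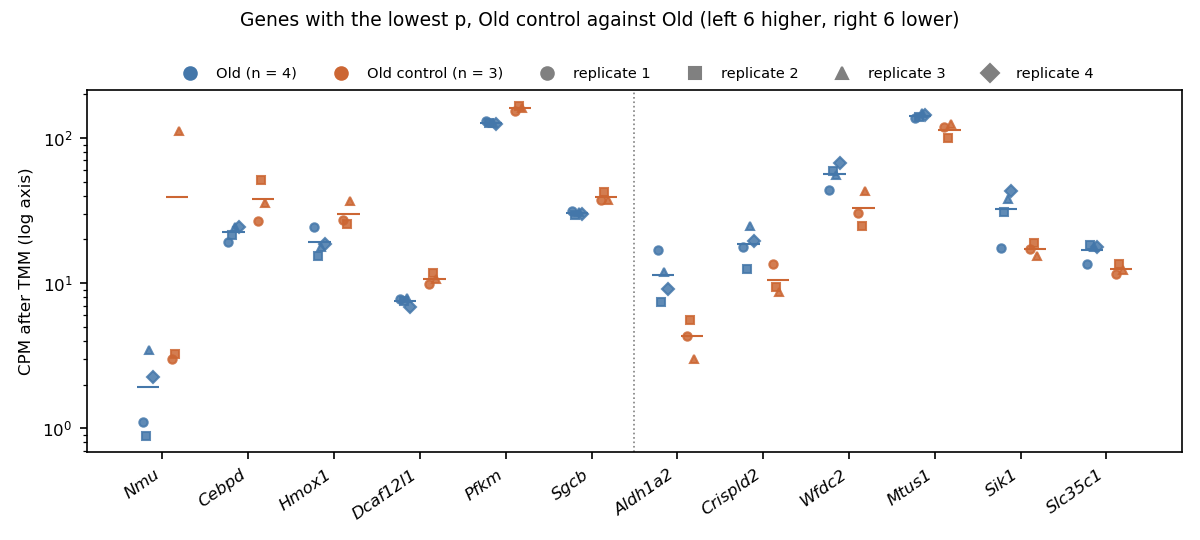
CPM (log axis) in each Old and Old control library for the 6 top genes by p on either side, with a mean of at least 3 log2 CPM, one point per library, the bar at the group mean. Pfkm, Sgcb and Dcaf12l1 show tight, separate groups, whereas the Nmu difference rests on Old control 3 at 112 CPM.

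Among genes with a mean of at least 3 log2 CPM, the largest fold changes went with single libraries or with the letter M. The highest were the Y-linked Uty (5.87), Ddx3y (5.65) and Eif2s3y (5.65), described above. The lowest were Lypd2 (-3.71), Slurp1 (-3.59) and Krt12 (-3.45), which mark conjunctival and corneal epithelium. Krt12 was at 7.18, 5.75, 53.8 and 1991 CPM in Old and 63.3, 39.9 and 38.4 CPM in Old control. Old 4 was the high library for all 3, and without it the values were 0.74 for Lypd2, 0.82 for Slurp1 and 1.07 for Krt12.

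RPE functions were compared by lists of genes, described by their counts and medians beside the same over all genes (median 0.04, 57.4% positive, 64.9% with an interval inside 2-fold). In the visual cycle, 0 of 13 genes reached an unadjusted p under 0.05, 9 were positive, the median was 0.04 and 12 had an interval inside 2-fold. That bound rests on the spread estimated over all 18 libraries. With the 7 libraries of the comparison fitted alone, only 3 of the 13 had an interval inside 2-fold. Rpe65 was at 3724, 4313, 3746 and 2171 CPM in Old and 4915, 1892 and 4193 CPM in Old control (0.07, interval -0.59 to 0.74). Rgr was at 15660, 16350, 17250 and 8981 CPM against 20780, 5936 and 16270 CPM (-0.02, interval -0.82 to 0.78). Each group held 1 low library, Old 4 and Old control 2, the same that were low in summed RPE markers. Without Old control 2 the list median was 0.39, without Old control 1 it was -0.25, and without both Old 4 and Old control 2 it was 0.21.

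In the fit over all 18 libraries, Ttr was the visual cycle gene whose interval reached past 2-fold. It was at 16560, 13320, 14030 and 8114 CPM against 19020, 7936 and 22250 CPM (0.33, interval -0.38 to 1.05). Among 14 melanin genes 5 were positive and 12 had an interval inside 2-fold (9 with the 7 libraries fitted alone), with a median of -0.08. The median was -0.19 without Old control 3 and 0.00 without Old 1. Tyr, tyrosinase, the first enzyme of melanin synthesis, was at 269 to 367 CPM in Old and 344, 257 and 416 CPM in Old control (0.04, interval -0.28 to 0.36). The melanosome matrix protein gene Pmel had the lowest value of the list (-0.54, interval -1.29 to 0.21), with 111, 312 and 149 CPM in Old control around 243 to 354 CPM in Old.

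Transcription factor genes went both ways. Of 11 RPE transcription factor genes, 6 were positive and 6 had an interval inside 2-fold (median 0.06, values -0.71 to 0.97). The median was -0.10 without Old control 1 and 0.14 without Old control 2. Otx2, which sets RPE identity, was at 587, 592, 608 and 380 CPM in Old and 716, 322 and 725 CPM in Old control (0.12, interval -0.42 to 0.66). The photoreceptor factor Crx had the highest value (0.97, interval -0.95 to 2.90), with 291 CPM in Old control 2, the library with the most rod transcripts. Its part in the value was not tested.

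Among 21 genes of transport, channels and barrier, 11 were positive and 17 had an interval inside 2-fold (median 0.02, values -1.61 to 0.92). With the 7 libraries fitted alone, 13 of the 21 had an interval inside 2-fold. The median was -0.13 without Old control 1 and 0.27 without Old control 2. The glucose transporter Slc2a1 was at 1489 to 2559 CPM in Old and 2339, 1422 and 2366 CPM in Old control (-0.02, interval -0.47 to 0.42). E-cadherin, Cdh1, had the lowest value (-1.61, interval -3.42 to 0.21) with 7.66, 106, 67.8 and 146 CPM in Old and 11.4, 41.6 and 27.7 CPM in Old control. Its high libraries were those with the most ocular surface transcripts, whose part in the value was not tested. All 16 genes of outer segment phagocytosis had an interval inside 2-fold, with 12 positive and a median of 0.04. The median was -0.01 without Old control 3 and 0.13 without Old control 2. They include the engulfment receptor Mertk (-0.02, interval -0.70 to 0.66) and the lysosomal protease Ctsd, cathepsin D (0.18, interval -0.30 to 0.65).

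**Figure D4:**
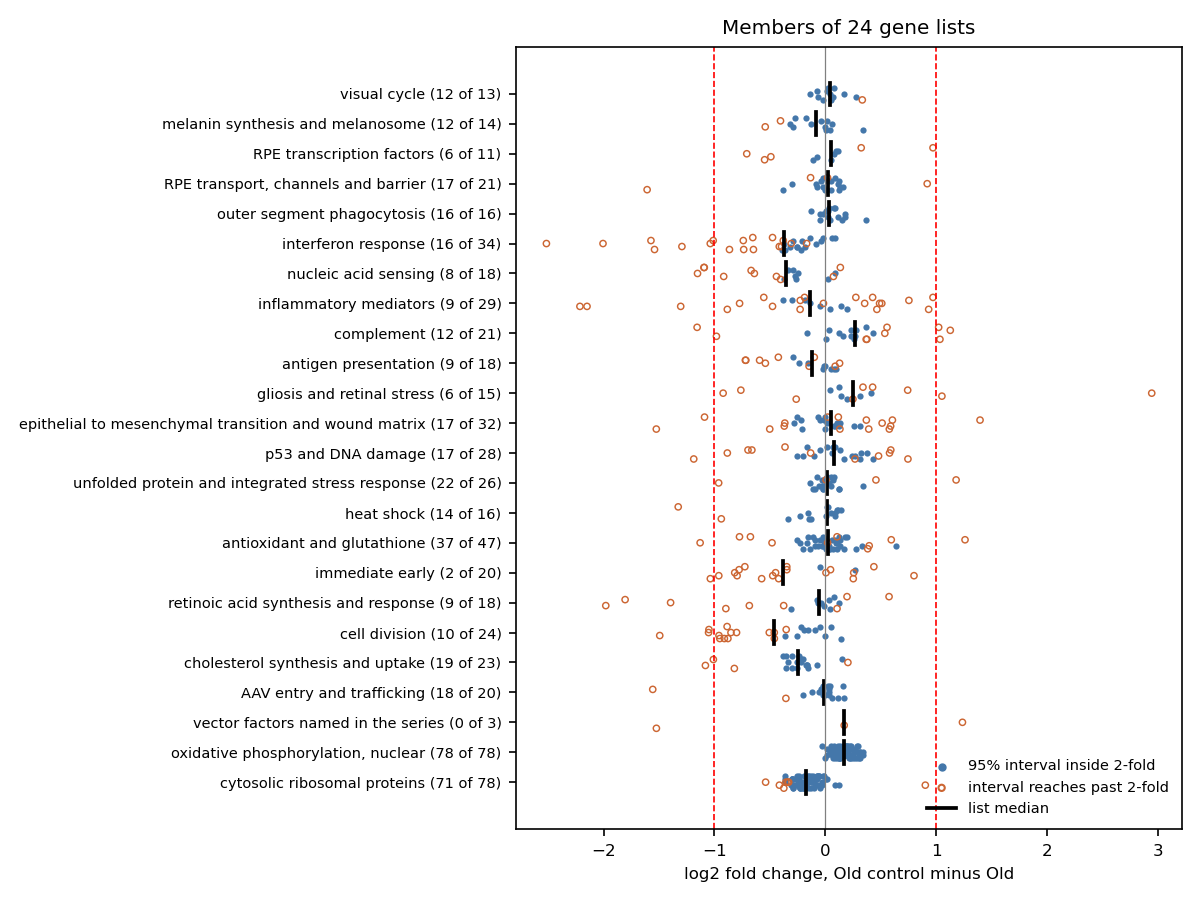
Log2 fold changes (Old control minus Old) of the tested members of each gene list, one point per gene, filled where its 95% interval lay inside 2-fold (the number in brackets, of those tested) and open where it reached past it, with a bar at the list median. Oxidative phosphorylation genes lie close together around 0.17 and outer segment phagocytosis genes around 0.04, while interferon response genes spread from -2.52 to 0.09.

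Antiviral response genes were not higher with the vector on average. Of 36 interferon response genes listed, 34 were tested, and 2 had a positive value, with a median of -0.38. None was higher and 3 were lower at an unadjusted p under 0.05, beside 2.4% and 1.34% of all genes. A 2-fold rise lay outside the interval of 33 of the 34, beside 77.8% of all genes. The median was -0.23 without Old 4, -0.55 without Old control 3 and -0.18 without both Old 4 and Old control 2. Ifit1, which binds foreign RNA, had a value of -0.39 (interval -1.12 to 0.33).

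Several of the lowest values of the list went with a high level in Old 4. Isg15, the ubiquitin-like interferon protein, was at 2.97, 5.59, 7.34 and 34.5 CPM in Old and 2.97, 10.1 and 5.75 CPM in Old control (-1.01, interval -2.51 to 0.49). Oas3, a sensor of double-stranded RNA, was at 0.910, 2.04, 2.74 and 18.8 CPM against 0.975, 1.05 and 1.19 CPM (-2.52, interval -4.78 to -0.25). In both genes Old 4 was the highest library, and without it the value for Oas3 was -0.83. Old 4 was also the library with the most ocular surface transcripts, and their part in these values was not tested.

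Sensors of foreign nucleic acid gave 4 positive values among 18 genes, with a median of -0.35, and a 2-fold rise lay outside the interval of 16. The median was -0.18 without Old 4 and -0.47 without Old control 2. Irf3, the transcription factor downstream of the DNA and RNA sensors, was at 40.9, 56.3, 56.5 and 61.5 CPM in Old and 54.7, 48.5 and 61.4 CPM in Old control (0.03, interval -0.27 to 0.33). Tlr3, the endosomal receptor for double-stranded RNA, was at 29.4, 36.2, 35.5 and 30.7 CPM against 29.3, 22.7 and 28.8 CPM (-0.29, interval -0.59 to 0.01). Its groups were apart by the small gap between Old 1 and Old control 1. Tlr9, the DNA receptor linked to sensing of AAV genomes, was at 0.335 to 0.897 CPM in Old and 0.0848 to 0.476 CPM in Old control, with a wide interval (-1.15, interval -2.65 to 0.34).

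Inflammatory mediators were mixed. Of 29 tested genes 12 were positive and 9 had an interval inside 2-fold (median -0.14). The median was -0.18 without Old 1, -0.02 without Old control 1 and 0.10 without Old 3. Cebpd, above, was the 1 gene higher at an unadjusted p under 0.05. Tnf, tumour necrosis factor, was the 1 gene lower, at 0.335, 2.72, 2.52 and 2.39 CPM in Old and 0.467, 0.473 and 0.397 CPM in Old control (-2.15, interval -3.68 to -0.62). Old 1 lay with the 3 Old control libraries. Serpina3n, an acute-phase serine protease inhibitor, was at 324 to 462 CPM in Old and 153, 669 and 841 CPM in Old control (0.43, interval -0.98 to 1.84). Its Old control libraries lay on both sides of the Old range.

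Complement genes were more often positive, 18 of 21, with a median of 0.27 and 12 intervals inside 2-fold. The median was 0.41 without Old 3, 0.22 without Old control 2 and 0.18 without both Old 4 and Old control 2. With only the libraries lacking the letter M, which leaves a single Old control library, 13 of 22 were positive, with a median of 0.18. Cfi, the protease that cleaves C3b and C4b, was at 4.69, 4.65, 4.44 and 4.93 CPM in Old and 5.94, 10.7 and 14.1 CPM in Old control (1.13, interval 0.49 to 1.76). The 4 Old libraries were tight and every Old control library was above them, with 140 to 356 reads behind each Old control value. The higher values were those of Old control 2 and 3, the M libraries, and Old control 1 lay nearest the Old libraries. C1ra, a subunit of the first complement protease, was at 9.82 to 12.8 CPM against 12.8, 13 and 19.1 CPM (0.43). C4b was at 77.3 to 99.1 CPM against 67.1, 155 and 315 CPM (1.02). Both M libraries were high for C4b and Old control 1 was the lowest of all 7. C3, the central component, had a value of 0.27 (interval -0.25 to 0.79).

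Antigen presentation genes gave 5 positive values of 18 (median -0.12), and 9 intervals lay inside 2-fold. The median was -0.35 with 1 positive without Old control 3, and 0.00 with 9 positive without Old 3. B2m, the light chain of class I molecules, was at 359 to 528 CPM in Old and 488, 387 and 495 CPM in Old control (-0.01, interval -0.30 to 0.27). Tap1, the peptide transporter, was at 15.4, 28.4, 32.9 and 35.2 CPM against 12.8, 19.0 and 19.1 CPM (-0.72, interval -1.41 to -0.03). Only Old 1 overlapped the Old control values in Tap1. Of 16 macrophage and microglia markers, 12 were positive and 12 had an interval inside 2-fold (median 0.19). The median was 0.02 without Old 2 and 0.37 without Old 3. Their sum was 989, 827, 1321 and 824 CPM in Old and 1202, 1004 and 975 CPM in Old control, inside the Old range. Adgre1, the macrophage marker F4/80, was at 7.71, 4.18, 7.69 and 6.58 CPM against 9.08, 10.3 and 7.58 CPM (0.45, interval -0.18 to 1.09).

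Genes of glial and retinal stress were positive in 12 of 15 (median 0.25), 3 of them at an unadjusted p under 0.05 (2.4% over all genes), and 6 intervals lay inside 2-fold. The median was 0.05 without Old control 3 and -0.03 with only the libraries that lack the letter M. Gfap, the intermediate filament of reactive glia, was at 78.4, 75.2, 47.5 and 48.4 CPM in Old and 89.0, 138 and 85.9 CPM in Old control (0.74, interval 0.05 to 1.44). Its groups were apart. Edn2, an endothelin that stressed photoreceptors release, was at 0.662 to 3.55 CPM in Old and 1.15, 44.0 and 1.43 CPM in Old control (2.95). Fgf2, a survival factor for photoreceptors, was at 11.6 to 19.6 CPM against 15.3, 60.8 and 12.8 CPM (1.05). Old control 2, the library with the most rod transcripts, was the single high library for Edn2 and Fgf2 and the highest for Gfap; the part of retinal tissue in these values was not tested. Markers of Muller glia and astrocytes were positive in 9 of 10 (median 0.46), 2 of them at an unadjusted p under 0.05 (2.4% over all genes). One of the 2, Crym, was at 67.9 CPM in Old control 2 and at 1.91 to 4.50 CPM in the other libraries. The list median was -0.09 without Old control 2.

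Stress genes within cells went both ways. Of 26 genes of the unfolded protein and integrated stress response, 15 were positive and 22 had an interval inside 2-fold (median 0.01, values -0.96 to 1.18). The number positive was 4 of 26 without Old control 1 (median -0.14) and 23 of 26 without Old control 2 (median 0.16). The chaperone Hspa5 (BiP) had a value of -0.02 (interval -0.53 to 0.48) and the transcription factor Atf4 a value of 0.13 (interval -0.19 to 0.44). Trib3, a pseudokinase that Atf4 and Ddit3 induce, was at 2.72 to 3.83 CPM in Old and 12.1, 5.88 and 3.65 CPM in Old control (1.18, interval 0.34 to 2.03). Ddit3 itself (CHOP) was at 29.4 to 35.7 CPM against 50.9, 37.3 and 36.0 CPM (0.34). Old control 1 was the highest library for both. Of 16 heat shock genes, 9 were positive and 14 had an interval inside 2-fold (median 0.01, values -1.33 to 0.14), with Hsp90aa1 at 0.14 (interval -0.28 to 0.56). That median was -0.05 without Old control 1 and 0.07 without Old control 2.

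The p53 and DNA damage list had 17 of 28 positive and 17 intervals inside 2-fold (median 0.08, and 0.19 without Old 4). Mdm2, the ubiquitin ligase that p53 induces, had a value of 0.01 (interval -0.17 to 0.20). The cell cycle inhibitor Cdkn1a (p21) had a value of -0.36 (interval -1.5 to 0.78). Trp53inp1, a p53-induced nuclear protein, had the lowest p of the list, at 13 to 14.6 CPM in Old and 13.7, 31.3 and 17.1 CPM in Old control (0.59, interval 0.17 to 1.01). Old control 2 was high and Old control 1 lay within the Old range.

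RPE cells can lose epithelial character after injury and take on mesenchymal genes. Of 32 genes of that transition and of wound matrix, 18 were positive and 17 had an interval inside 2-fold (median 0.05). The median was -0.01 without Old control 2 and 0.15 without Old control 3. Acta2, smooth muscle actin, was at 127, 177, 145 and 128 CPM in Old and 201, 91.8 and 167 CPM in Old control (0.09, interval -0.42 to 0.59). Fibronectin, Fn1, had a value of 0.00 (interval -0.64 to 0.63). Thbs1, the matrix protein thrombospondin 1, was at 478 to 716 CPM against 854, 554 and 1319 CPM (0.58, interval 0.01 to 1.15), with Old control 2 inside the Old range.

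Cell division genes were lower on average, with 2 of 24 positive and a median of -0.46, and 10 intervals inside 2-fold. A 2-fold rise lay outside the interval of all 24. The proliferation antigen Mki67 had a value of -0.89 (interval -2.03 to 0.26). The replicative helicase subunit Mcm2 was at 15.3, 20.7, 15.2 and 20.1 CPM in Old and 15, 12.9 and 13.8 CPM in Old control (-0.36, interval -0.64 to -0.08), apart by a narrow margin. The list median was -0.21 without Old 4 and -0.68 without Old 1. Of 20 immediate early genes 7 were positive and 2 had an interval inside 2-fold (median -0.38), so 18 of its 20 genes were not bounded within 2-fold. Its median was -0.73 without Old control 2, -0.12 without Old 4 and -0.08 without Old control 3. Jun, a subunit of AP-1, was at 33.1, 67.6, 60.3 and 77.6 CPM in Old and 33.5, 59.0 and 41.3 CPM in Old control (-0.42, interval -1.19 to 0.35).

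Among 47 antioxidant and glutathione genes, 26 were positive and 37 had an interval inside 2-fold (median 0.02, values -1.13 to 1.26). The median was -0.05 without Old control 3 and 0.07 without Old control 2. Nfe2l2, which encodes the transcription factor NRF2, had a value of 0.01, the quinone reductase Nqo1 0.11, the glutathione synthesis subunit Gclm 0.10 and the thioredoxin reductase Txnrd1 0.00. Prdx2, a peroxiredoxin that reduces hydrogen peroxide, was at 246, 245, 253 and 262 CPM in Old and 268, 283 and 305 CPM in Old control (0.18), with the groups apart. Gstm5, a glutathione transferase, was at 60.1 to 78.6 CPM against 94.0, 71.7 and 352 CPM (1.26), with Old control 3 far above the rest.

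Gsta4, the glutathione transferase for the lipid aldehyde 4-hydroxynonenal that the series title names, was at 448, 1133, 904 and 2287 CPM in Old 1 to 4 and 529, 890 and 674 CPM in Old control 1 to 3. The 3 Old control libraries fell inside the Old range, and Old 4 was the highest. The log2 fold change was -0.77 with an interval from -1.75 to 0.20, so that a 2-fold rise lay outside the interval and a 2-fold fall inside it. It was -0.25 (interval -1.13 to 0.63) without Old 4 and -1.05 (interval -1.95 to -0.14) without Old 1. The order of the 7 libraries was that of the limbal keratin Krt15, the ocular surface gene with the highest CPM, at 410, 3511, 2173 and 5841 CPM in Old and 428, 2052 and 1096 CPM in Old control. Other ocular surface genes had another order: Krt12, Lypd2 and Slurp1 were lowest in Old 2, the library next to highest for Gsta4. With the ocular surface score of each library added to the fit, after the data were seen, the value for Gsta4 was -0.33 (interval -0.89 to 0.23). That score comes from a list also chosen after the values were seen, and the part of ocular surface tissue in the Gsta4 values was not tested.

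Oxidative phosphorylation genes were positive in 76 of 78, with a median of 0.17 against 0.04 over all genes. All 78 intervals lay inside 2-fold and 64 inside 1.5-fold. In 8 of the 78 every Old control library was above every Old library (2.25% over all genes), and 10 had an unadjusted p under 0.05 and a positive value (2.4% over all genes). Ndufb8, a subunit of complex I, was at 56.8, 54.9, 60.5 and 66.9 CPM in Old and 65.4, 74.0 and 69.7 CPM in Old control (0.22, interval 0.04 to 0.40). Atp5b, the catalytic subunit of ATP synthase, was at 1147 to 1216 CPM against 1254, 1187 and 1318 CPM (0.07, interval -0.13 to 0.28). The list median was 0.27 without both Old 4 and Old control 2 and 0.11 without Old control 1. Genes of 1 pathway measured in the same libraries can vary together, so the 78 are not 78 separate observations.

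Cytosolic ribosomal protein genes went the other way in these libraries, with 5 of 78 positive, a median of -0.18 and 71 intervals inside 2-fold. Their summed level was 12487, 16317, 14966 and 27827 CPM in Old and 13775, 18147 and 14782 CPM in Old control. Old 4 was the high library, and without it 69 of 78 genes were positive with a median of 0.10. Rplp0, a stalk protein of the large subunit, was at 375, 602, 541 and 1278 CPM against 372, 582 and 491 CPM (-0.54, interval -1.29 to 0.22). Cholesterol synthesis and uptake genes had 2 of 23 positive, a median of -0.25 and 19 intervals inside 2-fold, and a median of -0.08 without Old 4.

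Of 20 genes of AAV entry and trafficking, 9 were positive and 18 had an interval inside 2-fold (median -0.01). The median was -0.09 without Old control 3 and 0.15 without Old control 2. AU040320, which encodes the AAV receptor AAVR, was at 85.5, 82.8, 80.9 and 56.7 CPM in Old and 86.8, 51.2 and 82.4 CPM in Old control (-0.06, interval -0.41 to 0.30). Gpr108, another entry factor, had a value of 0.12 (interval -0.13 to 0.37). Sdc1, a heparan sulfate proteoglycan, had the lowest value (-1.56, interval -3.35 to 0.23). Its levels were 26.7, 177, 121 and 510 CPM in Old and 29.8, 108 and 75.4 CPM in Old control. They were highest where ocular surface transcripts were highest, and the part of those transcripts was not tested.

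Retinoic acid genes had 7 of 18 positive and 9 intervals inside 2-fold (median -0.05), with 3 lower at an unadjusted p under 0.05 (1.34% over all genes). The median was -0.30 without Old control 2, -0.22 without Old control 1 and -0.01 without Old 3. One of the 3 is Aldh1a2, above. Tgm2, a transglutaminase that retinoic acid induces, was at 17.2, 61.2, 49.9 and 244 CPM in Old and 19.4, 31.6 and 19.8 CPM in Old control (-1.98). Old 4 was high and Old 1 was the lowest of all 7 libraries.

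The control vector carries no OSK cassette, and the 3 factors gave the background against which that cassette is read. Pou5f1 was at 0.239, 0.157, 1.39 and 0.359 CPM in Old and 1.06, 0.338 and 0.556 CPM in Old control (0.17, interval -2.42 to 2.76). These values rest on 3 to 44 reads per library. Sox2 was at 4.79, 1.99, 2.65 and 3.80 CPM against 2.80, 15.9 and 4.64 CPM (1.24, interval 0.30 to 2.18). Old control 2 was the single high library, the one richest in rod transcripts, and without it the value was 0.17. Klf4 was at 11.7, 69.6, 44.0 and 216 CPM against 24.2, 31.4 and 33.6 CPM (-1.52, interval -3.16 to 0.11). Old control lay inside the Old range for Klf4 and Old 4 was highest. None of the 3 had an interval inside 2-fold. In the Old OSK libraries the mean levels were 75.1 CPM for Pou5f1, 93.2 CPM for Sox2 and 321 CPM for Klf4.

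The 4 genes of lowest p above and the 4 below in Old OSK against Old control were read in the present comparison as well. Both comparisons use the same 3 Old control libraries, and the genes were chosen on the first, so their Old control levels are not independent of the choice. Pcolce2, a procollagen processing enhancer, was at 29.7 ± 6.58 CPM in Old (SD, n = 4), 36.3 ± 12.2 CPM in Old control (SD, n = 3) and 173 ± 44.7 CPM in Old OSK (SD, n = 4). Its log2 fold change was 0.29 (interval -0.19 to 0.77) for Old control against Old and 2.25 (SE 0.24) for Old OSK against Old control, with an adjusted p of 0.00092 by edgeR. The Old control libraries were at 37.4, 23.6 and 48.0 CPM, 1 inside and 2 above the Old range of 20.7 to 36.4 CPM.

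Tspan17, a tetraspanin, was at 20.4, 20.3 and 45.7 CPM on average in Old, Old control and Old OSK (-0.00, interval -0.29 to 0.29, and then 1.17). Paics, an enzyme of purine synthesis, was at 176, 170 and 288 CPM (-0.05, interval -0.24 to 0.15, and then 0.76). Plekha4 was at 7.60, 10.3 and 44.4 CPM (0.44, interval -0.08 to 0.97, and then 2.10). For all 4 genes that were higher with OSK, the interval of Old control against Old lay inside 2-fold. That held for 85.7% of all genes with a mean of at least 3 log2 CPM. Choice by low p also favours genes with a small spread, and the same spread sets the width of these intervals.

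Of the genes lower with OSK, Nyap2, a phosphoadaptor of neurons, was at 41.1, 44.8 and 13.7 CPM (0.13, interval -0.30 to 0.55, and then -1.71). 1110002E22Rik was at 15.4, 15.6 and 5.59 CPM (0.02, interval -0.47 to 0.51, and then -1.48). In both, Old and Old control means lay close together. Bmi1, a Polycomb subunit, was at 88.2, 100 and 67.7 CPM (0.18, interval -0.00 to 0.37, and then -0.56). Phka1, a subunit of phosphorylase kinase, was at 26.2, 31.4 and 20.2 CPM (0.26, interval 0.05 to 0.47, and then -0.64). In Phka1 every Old control library, at 34.4, 28.5 and 31.4 CPM, was above every Old library, at 24 to 27.9 CPM.

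**Figure D5:**
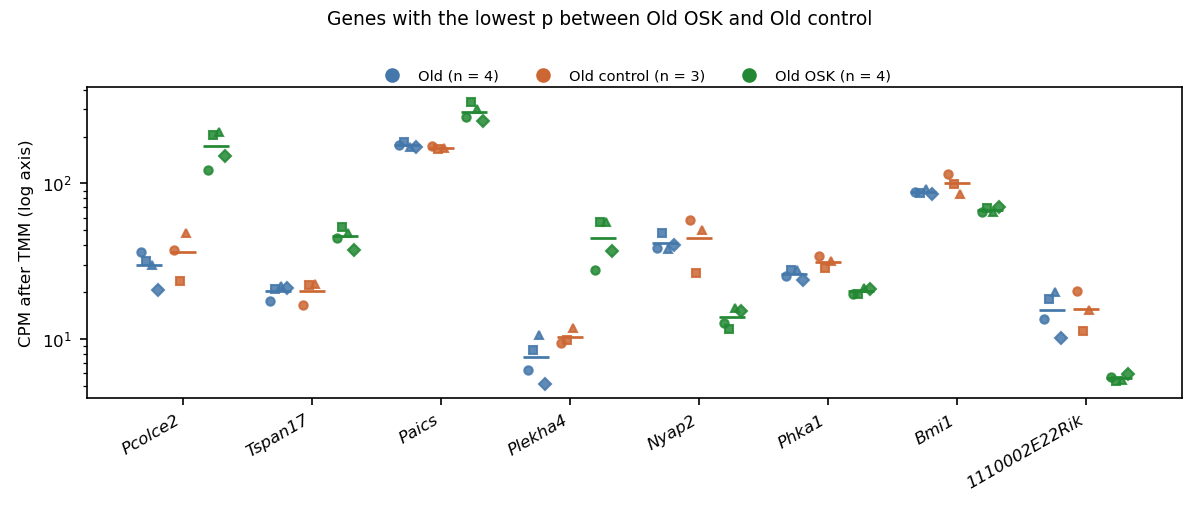
CPM (log axis) in each Old, Old control and Old OSK library for the 4 genes of lowest p above and the 4 below in Old OSK against Old control, one point per library with a symbol for each replicate number and a bar at the group mean. Old and Old control points overlap in 7 of the 8 genes, and in Phka1 the Old control points lie above the Old points.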

How the data were processed

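RPE cells were preserved in RNAprotect, RNA was extracted with TRIzol, and full-length cDNA was made with a SMART-Seq v4 low-input kit followed by Nextera XT libraries, per the labels' protocols. This chemistry marks no strand, so reads of a gene and of its antisense partner cannot be told apart. The deposited values are whole-number counts per gene. The submitters' processing notes list STAR 2.7.1a and featureCounts 1.6.2; the annotation and strand setting are not given in the sources used here. Statistics were computed from the counts with edgeR 4.0.16, limma 3.58.1 and DESeq2 1.42.0 in R 4.3.3.

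Genes were kept by filterByExpr (minimum count 10, minimum total 15), scaled by TMM, and fitted with edgeR's quasi-likelihood model over all 18 libraries in 4 groups, with Benjamini-Hochberg adjustment and a threshold of 0.05. The 95% interval was the log2 fold change plus or minus the t quantile times its standard error. The procedure was checked on simulated data. Nothing in the labels says that the libraries came from separate animals, so p-values measure only the spread between these libraries, which may be technical. Xist has no row in the count table and was not analysed here.

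The libraries, gene lists and comparison were chosen with earlier results of these data known. Genes were named by rule: the OSK factors and Gsta4, the Y-linked genes, the 6 lowest p and the 3 largest changes per direction at a mean of at least 3 log2 CPM, and in each list the gene with the lowest p and that with the highest level. Other list members, the 8 OSK-responsive genes, the ocular surface list and the covariate fits with it were chosen after the values were seen. Alternatives changed the scaling, filter, tool, covariates and libraries. Libraries of the same replicate number gave correlations of deviations of 0.20, -0.19 and 0.36. Those of unlike number gave -0.45 to 0.41. These values do not settle whether the libraries are paired, and the main fit did not pair them.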

Additional observations from a re-analysis of the deposited data

Results flagged for a closer look

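Values in the 4 Old libraries were examined for a single library far from its group, by the gap between the extreme library and its nearest neighbour as a share of the group's whole range. Chance alone passes about 1 in 20 groups when they are separate, unselected and normally distributed. Here 16 of 125 groups of values passed, 13 of them with Old 4 as the extreme library. Some of the genes had been chosen for large changes or low p, and some lists share genes. The share that passed is therefore not a measure of excess over chance. Old 4 was the highest for Krt12 (0.976), Lypd2 (0.977), Slurp1 (0.975), Oas3 (0.898), Pmel (0.872) and the summed neutrophil markers (0.883). It was the lowest for Otx2 (0.907), Clu (0.871) and the summed levels of RPE markers (0.928), the visual cycle (0.926), complement (0.925), retinoic acid genes (0.868) and RPE transport genes (0.845).

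The other 3 had another extreme library. Old 1 was the highest for the summed melanin genes (0.927) and the lowest for Slc35c1 (0.876). Old 3 was the highest for Pou5f1 (0.836), at 44 reads. The Old control group, with 3 libraries, is too small for this measure.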

How the results depend on the processing

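No gene was called under any of 22 alternatives, 20 planned and 2 added after the data were seen. The lowest adjusted p was 0.304, with DESeq2. The genes with an interval inside 2-fold numbered 8417 with only the libraries lacking the letter M to 11311 with rod and ocular surface scores in the fit, and the genes equivalent within 2-fold 8452 to 11690. Genes below 0 log2 CPM were hardly bounded, and 3 against 4 libraries leave small changes in low genes undetectable.

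Some single genes changed direction; the cause was not tested. With the letter M as a covariate, Uty was at -0.47, Ddx3y at -0.52 and Kdm5d at -1.24. With only the libraries lacking it, where the single Old control library is taken to vary like the other groups, they were at -0.059, -0.37 and -0.092, and Sox2 was at -0.24. Leaving out each library in turn gave -4.12 to 0.74 for Lypd2, -4.0 to 0.82 for Slurp1 and -3.86 to 1.07 for Krt12. Without both Old 4 and Old control 2 these were 0.86, 1.01 and 1.18. They were 0.24, 0.49 and 0.94 with the ocular surface score as a covariate, and 0.37, 0.51 and 1.12 with the rod score added.

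Whether the replicate numbers pair the libraries was not settled. With the replicate block on the 6 libraries numbered 1 to 3, 0 genes were called, 9304 intervals lay inside 2-fold and 9689 genes were equivalent. Lypd2, Slurp1 and Krt12 were at 1.34, 1.55 and 1.87 with the block, and at 0.75, 0.87 and 1.07 in the same libraries without it.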

Other observations

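A few transcripts of other tissues stood in single libraries; these genes were chosen after their values were seen, and the source of the transcripts was not tested. Old 3 held transcripts typical of gut epithelium. The antimicrobial lectins Reg3b and Reg3g were at 18.5 and 13.7 CPM there, and at 0.0479 and 0.0848 CPM or less in the other Old and Old control libraries. The Paneth cell defensin Defa24 was at 9.42 CPM, the intelectin Itln1 at 6.78 CPM and the goblet cell protein Zg16 at 5.17 CPM in Old 3. The highest other library was at 0.0794 CPM for Defa24, 0.339 CPM for Itln1 and 0.159 CPM for Zg16. These levels are small beside the summed RPE markers of Old 3, 49007 CPM.

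Old control 2 stood apart for a different set. The serine protease Prss56, known from retinal glia, was at 61.6 CPM in Old control 2 and at 0.357 to 1.14 CPM in the other 6 libraries. The receptor Gpr37 was at 91.3 CPM in Old control 2 against 2.12 to 6.81 CPM in the others. Crym, from the list of Muller glia and astrocyte markers, was at 67.9 CPM against 1.91 to 4.50 CPM. The cone opsin Opn1mw was at 49.3 CPM there and at 1.67 to 6.80 CPM in the others.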
